A study of Mus musculus with 3 samples.

Results

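In the cell classes of the embryonic mouse kidney, 8 genes of the heparan sulfate system were measured: the glypican core proteins Gpc3, Gpc4 and Gpc6, the syndecan core proteins Sdc1 and Sdc4, and the sulfotransferases Hs2st1, Hs3st3a1 and Hs3st3b1. They were chosen by name, with earlier results of these data known. All 8 were listed in each of the 3 raw count tables, which hold 22939 (Drop-seq), 27933 (10x Chromium) and 23420 (Fluidigm C1) genes. The cells came from wild-type mouse kidneys at stage E14.5, on a mixed strain of mostly CD-1 with 129. The study set 3 single-cell platforms side by side, with 1 library each: Drop-seq and 10x Chromium, which catch single cells in droplets and count unique molecular identifiers (UMIs) at the 3′ end of transcripts, and Fluidigm C1, a microfluidic chip whose table counts reads. There was no treatment, mutant or second time point, so the comparisons are between cell classes.

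Heparan sulfate is a long sulfated sugar chain carried by core proteins at the cell surface and in basement membranes, where it binds growth factors such as FGFs, GDNF and Wnts. Glypicans are held in the membrane by a lipid anchor and syndecans by a transmembrane segment. After the chain is built, sulfotransferases place sulfate at set positions: Hs2st1 acts on the 2-O position of uronic acids, and the 3-O-sulfotransferases, among them Hs3st3a1 and Hs3st3b1, on the 3-O position of glucosamine. Mice that lack Hs2st1 fail to form kidneys, and loss of Gpc3 disturbs the branching of the ureteric bud and leads to dysplastic kidneys.

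The pair Hs3st3a1 and Hs3st3b1 needs its sequence shown first, because the identity of these transcripts limits what the counts can tell apart. Both genes lie on mouse chromosome 11 (GRCm38), 513 kb apart and on opposite strands, Hs3st3a1 at chr11:64435332-64522841 (plus) and Hs3st3b1 at chr11:63885792-63922290 (minus). Within their coding exon 2 they share an identical run of 401 bases, and 629 coding bases of each lie in stretches of 31 or more bases found in the other, which is 53.2% of the coding bases of Hs3st3a1 and 53.6% of those of Hs3st3b1. The 120-base windows at the 5′ edge of that run, in the sense of each gene, are shown to make this visible, with the single base that differs in capitals (chr11:64520250-64520369 plus and chr11:63889574-63889693 minus).
Hs3st3a1: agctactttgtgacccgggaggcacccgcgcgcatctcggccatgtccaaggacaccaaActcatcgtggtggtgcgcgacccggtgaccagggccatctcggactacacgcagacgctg
Hs3st3b1: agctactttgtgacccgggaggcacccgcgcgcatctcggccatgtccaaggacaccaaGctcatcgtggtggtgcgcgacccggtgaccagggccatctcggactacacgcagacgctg
The shared part ends 2038 bases before the 3′ end of the Hs3st3a1 transcript and 3348 bases before that of Hs3st3b1, and the last 500 bases of both share no stretch of 31 bases. Counts taken at the 3′ end can therefore tell the genes apart, whereas reads from the shared part cannot. The labels do not say which part of a transcript the Fluidigm C1 reads cover, so its values for this pair are uncertain in that respect. A further 1295 exonic bases of Hs3st3a1 overlap F930015N05Rik on the other strand, a gene that drew 10, 7 and 36 counts in the whole Drop-seq, 10x Chromium and Fluidigm C1 tables. No overlap with another gene's exons was annotated for the other 7 genes.

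The promoters of this pair (RefSeq, GRCm38.p6, 250 bases before to 50 after the start) are shown because both genes were high in the same epithelium. The capitals mark the longest run that they share, CCTTCGCG, of 8 bases (chr11:64435082-64435381 plus and chr11:63922235-63922534 minus).
Hs3st3a1: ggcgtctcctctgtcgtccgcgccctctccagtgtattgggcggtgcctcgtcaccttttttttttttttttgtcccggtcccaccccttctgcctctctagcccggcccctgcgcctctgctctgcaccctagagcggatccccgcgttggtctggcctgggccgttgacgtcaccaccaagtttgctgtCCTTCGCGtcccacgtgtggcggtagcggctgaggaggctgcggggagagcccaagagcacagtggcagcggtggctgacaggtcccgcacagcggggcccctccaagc
Hs3st3b1: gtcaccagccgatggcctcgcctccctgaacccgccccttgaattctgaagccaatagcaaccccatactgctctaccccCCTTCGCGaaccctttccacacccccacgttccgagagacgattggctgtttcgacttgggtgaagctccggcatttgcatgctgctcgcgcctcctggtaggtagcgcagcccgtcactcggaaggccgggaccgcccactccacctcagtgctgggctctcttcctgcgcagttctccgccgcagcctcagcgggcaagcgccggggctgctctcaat
These 8 letters, or CGCGAAGG on the other strand, occur in 0.694% of the 32851 promoter windows of the table. The run was picked as the longest that these windows share. The percentage therefore does not say how often a pair of promoters shares some run of 8 bases, which was not tested. The longest run shared by the promoter windows was thus 8 bases, against 401 bases in exon 2.

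The other members are spread over the genome (all on GRCm38). Gpc4 (chrX:52053021-52165252) and Gpc3 (chrX:52272426-52613950) are neighbours on the X chromosome, both on the minus strand and 107 kb apart. Gpc6 spans 1051.2 kb of chromosome 14 (chr14:116925315-117976544, plus). Sdc1 lies at chr12:8771323-8793715 (plus), Sdc4 at chr2:164424247-164443887 (minus) and Hs2st1 at chr3:144429706-144570181 (minus).

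After filtering, 1964 Drop-seq, 2130 10x Chromium and 883 Fluidigm C1 cells remained, with medians of 7060 UMIs, 7369 UMIs and 166712 reads per cell. No cell barcode was shared between libraries, whose barcodes have different formats. Cells were clustered without the heparan sulfate genes and the clusters named from marker lists, which gave cap mesenchyme (nephron progenitors; 604, 228 and 167 cells in Drop-seq, 10x Chromium and Fluidigm C1), nephron epithelium (the tubule precursors that form from it; 493, 354 and 173), ureteric epithelium (175, 154 and 87), stroma (442, 767 and 365) and endothelium (101, 368 and 77). Podocytes formed clusters only in the droplet libraries (90 and 98 cells), and immune cells were few (11, 55 and 14). The lists that named the clusters were then summed per class, which is no independent check of the names. In every library the marker lists of cap mesenchyme, ureteric tip and trunk, stroma, endothelium and immune cells had their highest summed level in the class of that name. The nephron lists did so too, except that the early list was highest in podocytes of 10x Chromium and the distal list in ureteric epithelium of Fluidigm C1. In Fluidigm C1 the cap mesenchyme markers also summed to 1207 CPM (counts divided by the class total and scaled to parts in 1e6) in immune cells, against 2529 CPM in cap mesenchyme. Erythroid markers, mostly globins, summed to 10640 CPM in stroma of Drop-seq, 4425 CPM in podocytes of 10x Chromium and 775 CPM in nephron epithelium of Fluidigm C1, and their part in the results was not tested. Podocyte markers summed to 14.3 CPM in the nephron epithelium of Fluidigm C1, against 929 and 1081 CPM in the podocytes of Drop-seq and 10x Chromium.

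Counts were summed over the cells of each class in each library, and levels are given as CPM of that sum with the 95% Poisson interval where it is wide. Differences between classes were tested with the quasi-likelihood test of edgeR over the 15 sums of the 5 classes found in all libraries, with the library as a block and p-values adjusted by the Benjamini-Hochberg method over 9640 genes that had served neither for clustering nor as markers. A fitted difference is the log2 fold difference of a class from the mean of the other 4 classes, ± its standard error, and a gene was called at an adjusted p under 0.05. The replicates are the 3 libraries, which differ in platform, and nothing in the labels says whether they came from separate animals, so the p-values measure the spread between these libraries only.

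Of the 8 members, 7 were called in at least 1 comparison and Hs2st1 in none. The share of all genes called in at least 1 comparison was not counted, so only the counts per comparison can be set beside all genes. The members were also chosen with earlier results of these data known. In cap mesenchyme 1 member was higher and 2 were lower, beside 7.65% and 5.21% of all genes tested. In nephron epithelium 3 members were higher and 0 lower (6.65% and 3.84% of all genes), and in ureteric epithelium 3 were higher and 0 lower (8.99% and 5.88%). In stroma 2 were higher and 1 was lower (7.34% and 8.17%), and in endothelium 0 were higher and 5 lower (14.54% and 11.04%). In nephron epithelium against cap mesenchyme, 2 were higher and 0 lower (4.52% and 3.14%). Between nephrogenic-zone stroma and other stroma edgeR called 0 members in either direction (1.39% and 0.534% of all genes), 2 had an unadjusted p under 0.05, and DESeq2 also called 0. The members were kept out of the clustering genes by rule, whereas other variable genes were not. With the clustering and marker genes counted in, the percentages higher and lower were 8.57% and 8.78% in cap mesenchyme. They were 9.6% and 6.4% in nephron epithelium, 11.7% and 8.84% in ureteric epithelium, 11.3% and 10.1% in stroma and 16.8% and 12.2% in endothelium. Nephron epithelium against cap mesenchyme gave 7.89% and 4.6%, and the stromal zones 2.11% and 2.34%.

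**Figure D1:**
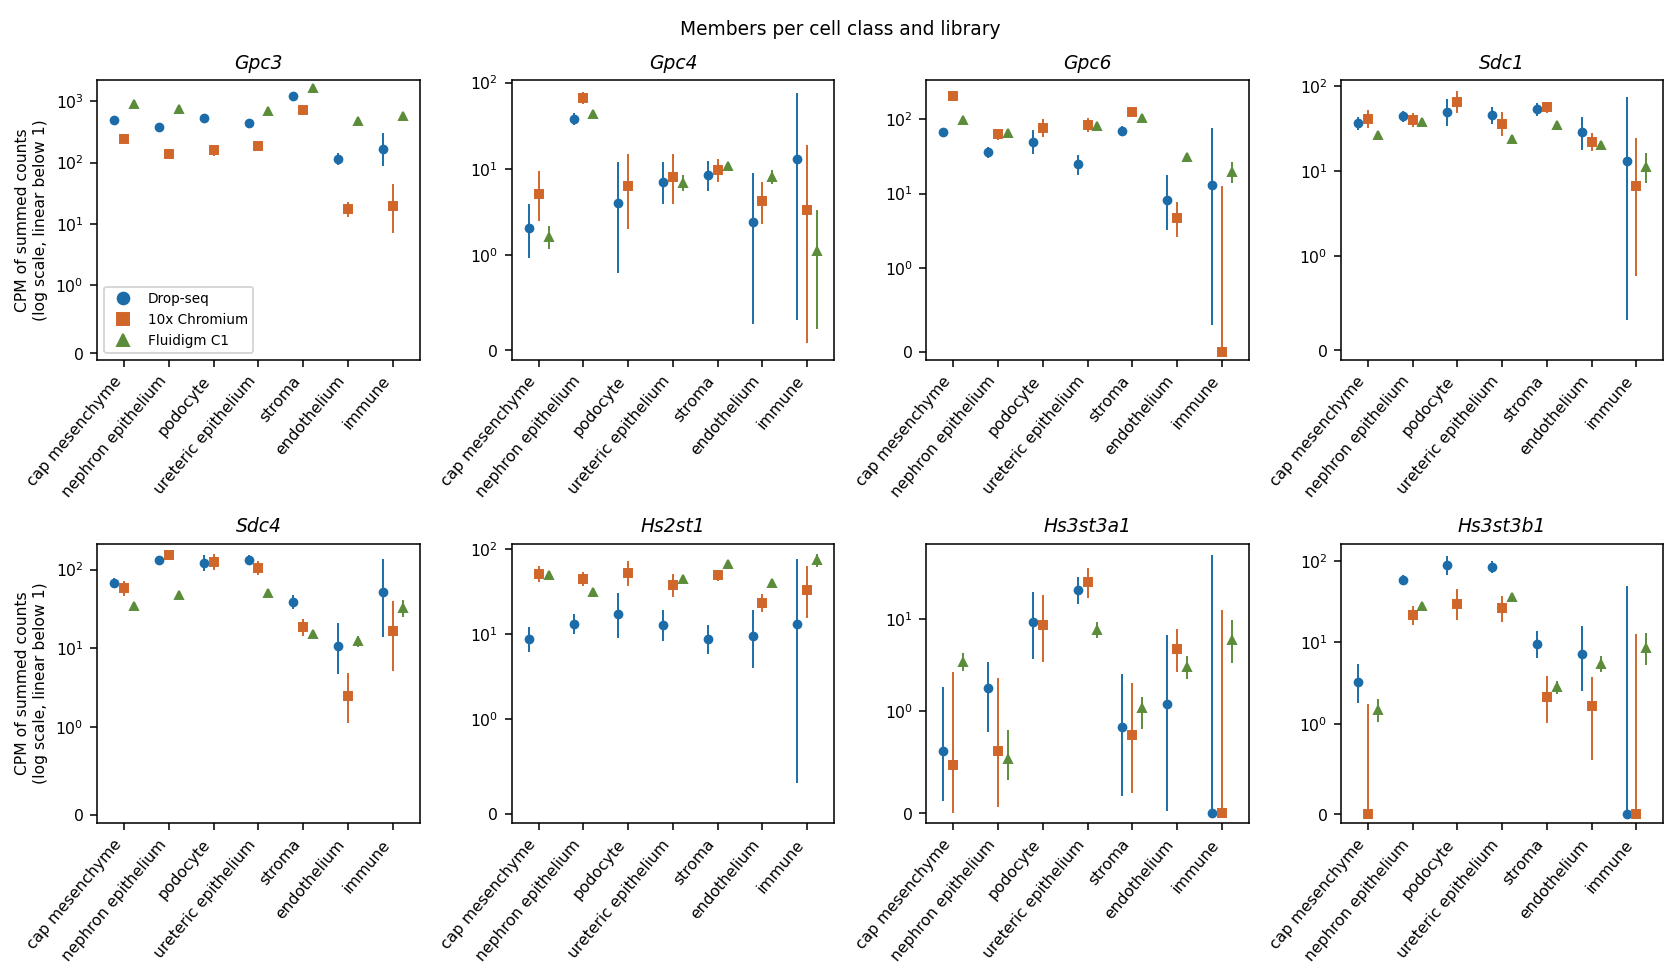
CPM of the 8 members (y axis, log scale that is linear below 1) in 7 cell classes (x axis) of Drop-seq (circles), 10x Chromium (squares) and Fluidigm C1 (triangles); bars are 95% Poisson intervals of the summed counts. Gpc4 stands out in nephron epithelium and Gpc3 in stroma, Hs3st3a1 and Hs3st3b1 are high in ureteric epithelium, and the order of classes for Hs2st1 differs between libraries.

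Gpc3 had its highest level in stroma. It is a core protein that limits growth, and its loss in people causes an overgrowth syndrome with kidney anomalies. In stroma it reached 1213 CPM in Drop-seq, 732 CPM in 10x Chromium and 1676 CPM in Fluidigm C1. In cap mesenchyme the levels were 493, 241 and 919 CPM, in ureteric epithelium 441, 188 and 686 CPM, and in nephron epithelium 375, 139 and 739 CPM. Stroma was above every other class in all 3 libraries, and no intervals overlapped. The fitted difference of stroma was 1.92 ± 0.34 on the log2 scale (edgeR adjusted p = 0.0067), with 1.86, 2.75 and 1.24 in Drop-seq, 10x Chromium and Fluidigm C1.

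Endothelium was the low class for Gpc3, with 115 CPM in Drop-seq, 17.2 CPM in 10x Chromium and 474 CPM in Fluidigm C1. Immune cells, of which there were only 11, 55 and 14, gave 170, 19.8 and 582 CPM in the same libraries, so the endothelial level was no higher than that of the immune class in any library; the part of free RNA in either level was not tested. Endothelium fell below the mean of the other classes by 1.91 on the log2 scale (SE 0.45, edgeR adjusted p = 0.0149). The per-library differences ran from -0.93 in Fluidigm C1 to -3.72 in 10x Chromium, and the Gpc3 level in endothelium and immune cells was highest in Fluidigm C1. At 4000 UMIs per cell, a Gpc3 UMI was found in 97% (Drop-seq) and 91.1% (10x Chromium) of cells of the stroma, against 18.8% and 6.87% of endothelial cells and 20% and 6.67% of immune cells. Before thinning, the shares in stroma were 98.9% and 95%, and median depths were 6628 and 6279 UMIs in stroma against 5704 and 5163 UMIs in immune cells. Both Gpc3 calls were lost without Drop-seq (adjusted p = 0.162 in stroma and 0.203 in endothelium), with fitted differences of 2.0 and -1.88.

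Within stroma no Gpc3 difference was called. Nephrogenic-zone stroma, the Foxd1-marked cells around the cap, had 1362, 762 and 1825 CPM, and other stroma, marked by genes such as Dcn, Lum and Acta2, had 920, 586 and 1594 CPM. The nephrogenic zone was higher in all 3 libraries, but the difference of 0.49 ± 0.44 (95% interval -0.49 to 1.48) did not pass the test (edgeR adjusted p = 0.608). Stroma named for no zone lay in the same range, at 1351, 791 and 1683 CPM. In the ureteric trunk of the droplet libraries, a part with only 16 and 36 cells, Gpc3 had 85.8 and 99.2 CPM, against 532 and 207 CPM in the ureteric tip. The 16 Drop-seq trunk cells had a median of 5793 UMIs but 431304 in sum, so most came from the deepest cells.

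Among the classes tested, Gpc4 was highest in nephron epithelium. Gpc3 still had the higher level there, at 375, 139 and 739 CPM in Drop-seq, 10x Chromium and Fluidigm C1. Gpc4 is a glypican known as a modulator of Wnt and FGF signals in other tissues. Its level in nephron epithelium was 37.9 CPM in Drop-seq, 66.7 CPM in 10x Chromium and 42.9 CPM in Fluidigm C1. In cap mesenchyme, from which this epithelium forms, it was 2.04, 5.13 and 1.60 CPM, on 10, 11 and 50 counts. The intervals of these classes did not overlap in any library. The fitted difference of nephron epithelium from cap mesenchyme was 4.32 ± 0.39 on the log2 scale (edgeR adjusted p = 2.05e-05), with 4.04, 3.58 and 4.65 in Drop-seq, 10x Chromium and Fluidigm C1. For Gpc3, its neighbour on the X chromosome, the same comparison gave -0.55 ± 0.48 and was not called (edgeR adjusted p = 0.573).

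Against the mean of the other classes, Gpc4 was higher in nephron epithelium by 3.11 ± 0.23 (edgeR adjusted p = 2.37e-06) and fell by 2.29 in cap mesenchyme (SE 0.35, adjusted p = 0.000485). These 3 calls on Gpc4 were kept under all 10 alternative settings. Ureteric epithelium had 7.06, 7.98 and 6.87 CPM, stroma 8.41, 9.62 and 10.7 CPM, and endothelium 2.38, 4.16 and 7.95 CPM. Stroma was above ureteric epithelium in all 3 libraries, while the order of ureteric epithelium, endothelium and cap mesenchyme differed between libraries. In endothelium the difference of -0.62 ± 0.31 was not called (edgeR adjusted p = 0.154), but it was called without Fluidigm C1 (-1.49, adjusted p = 0.00275), with a coarser clustering (-1.05, adjusted p = 0.00766) and with no doublet removed (-1.06, adjusted p = 0.00776).

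Within the nephron, Gpc4 was highest in the proximal precursors. These cells, which will reabsorb filtered solutes, had 86 CPM in Drop-seq and 80.4 CPM in Fluidigm C1. Distal or loop precursors had 32.1 and 46.4 CPM in Drop-seq and 10x Chromium, early nephron epithelium 24.8 and 9.30 CPM in Drop-seq and Fluidigm C1, and podocytes 3.99 and 6.22 CPM in the droplet libraries. The group named proximal in 10x Chromium held 2 clusters, of which the larger was led by early nephron genes, so they are given apart. The 74 cells led by genes such as Sult1d1 and Slc34a1, of the proximal tubule, had 162 CPM, and the 141 cells led by Osr2, Hes5, Clu and Car4, which also led the early nephron cluster of Drop-seq, had 47.8 CPM. Stages have no replicate test here, since no nephron stage other than the proximal one was named in all libraries. At 4000 UMIs per cell, 14.1% and 24.4% of nephron epithelium cells held a Gpc4 UMI in Drop-seq and 10x Chromium, against 0.511% and 1.45% of cap mesenchyme cells and 0 of 10 and 0 of 30 immune cells, which allow shares of up to 30% and 10%.

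**Figure D2:**
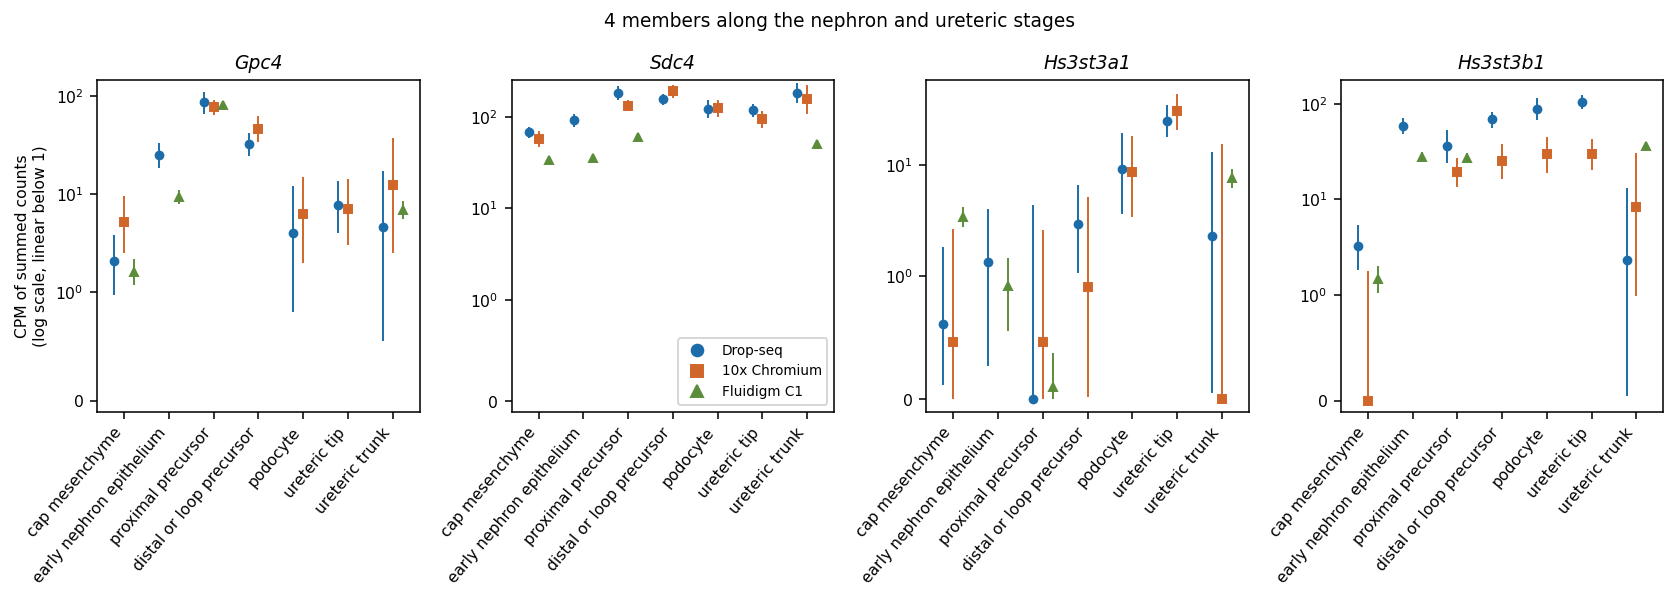
CPM of Gpc4, Sdc4, Hs3st3a1 and Hs3st3b1 (y axis, log scale that is linear below 1) in cap mesenchyme, the nephron stages, podocytes and the ureteric tip and trunk (x axis), by library; bars are 95% Poisson intervals. Gpc4 is at 86 and 80.4 CPM in the proximal precursors of Drop-seq and Fluidigm C1; the 10x Chromium point of that name, 77.1 CPM, pools clusters at 162 and 47.8 CPM, the second led by early nephron genes. In the droplet libraries both 3-O-sulfotransferases are higher in ureteric tip than in trunk, and the single ureteric cluster of Fluidigm C1 is plotted as trunk.

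Gpc6 was highest in cap mesenchyme and stroma among the classes tested, though Gpc3 had the higher level in both in every library. Gpc6 is a glypican known for its part in bone growth. Cap mesenchyme had 66.2 CPM in Drop-seq, 199 CPM in 10x Chromium and 94.7 CPM in Fluidigm C1, and stroma had 68.1, 124 and 103 CPM. Which of these classes was higher differed between libraries, since cap mesenchyme led in 10x Chromium only. Nephron epithelium had 35.5, 61.5 and 64.3 CPM and ureteric epithelium 24.5, 82.7 and 80.3 CPM. The fitted difference of cap mesenchyme was 1.37 ± 0.36 (edgeR adjusted p = 0.0394), higher in all 3 libraries by 1.43, 2.32 and 0.54. This call lies near the threshold: the adjusted p was 0.0512 without 10x Chromium, 0.322 without Drop-seq, 0.054 with a coarser clustering and 0.0624 with no filter on low counts.

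In stroma the Gpc6 difference of 0.94 ± 0.36 was not called (edgeR adjusted p = 0.119), and the difference of nephron epithelium from cap mesenchyme, -1.17 ± 0.49, was not called either (adjusted p = 0.202). Without Fluidigm C1 both passed, at 1.46 (adjusted p = 0.000885) and -1.36 (adjusted p = 0.00643), and the stromal one also without 10x Chromium (adjusted p = 0.0455) and with no doublet removed (adjusted p = 0.0442). Endothelium was again low, with 8.32, 4.72 and 30.9 CPM, and fell below the other classes by 2.23 (SE 0.50, adjusted p = 0.0107). Immune cells gave 13.1, 0 and 19.3 CPM on 1, 0 and 52 counts, and the endothelial level lay above the immune one in 10x Chromium and Fluidigm C1 only, where the 10x Chromium intervals overlapped. This endothelial call was lost without Drop-seq (adjusted p = 0.129). Among the clusters of 10x Chromium, Gpc6 was highest, at 340 CPM, in 54 cells of other stroma led by Mgp, Cxcl13 and Ccl11.

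**Figure D3:**
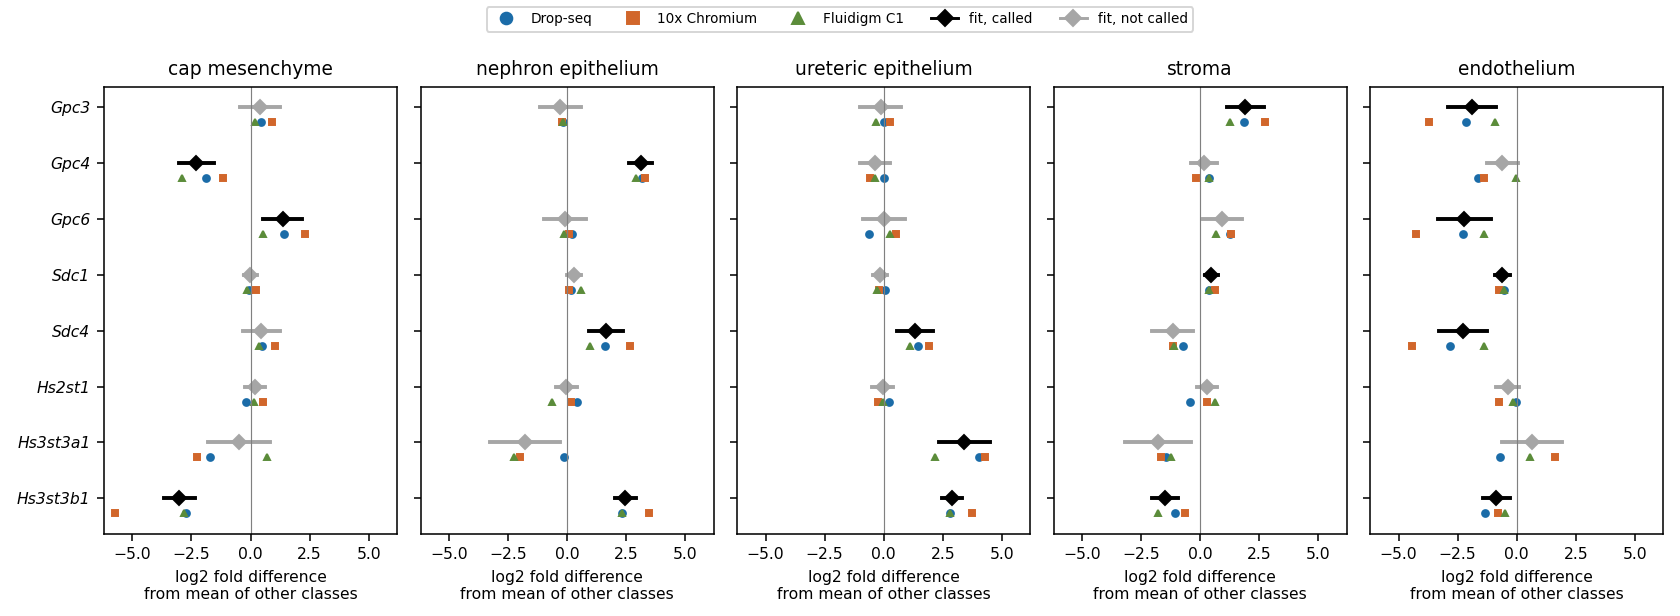
Fitted log2 fold difference (x axis) of 5 cell classes (panels) from the mean of the other 4 for each member (y axis); diamonds and bars are the edgeR estimate and its 95% interval, black where called and grey where not, and the symbols beneath are the 3 libraries. Gpc4, Hs3st3a1 and Hs3st3b1 have the widest range of differences and Sdc1 and Hs2st1 the narrowest.

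Among the classes tested, Sdc4 was highest in the epithelia. Syndecan 4 sits at focal adhesions and acts with integrins in cell attachment. Nephron epithelium had 133 CPM in Drop-seq, 152 CPM in 10x Chromium and 47.1 CPM in Fluidigm C1, and ureteric epithelium 132, 105 and 50.8 CPM. Cap mesenchyme followed with 67.6, 57.9 and 34.0 CPM, then stroma with 38.7, 18.5 and 15.1 CPM and endothelium with 10.7, 2.50 and 12.3 CPM. The order of the last 3 classes was the same in all libraries, whereas nephron and ureteric epithelium changed places in Fluidigm C1. Immune cells were not tested. In Fluidigm C1 the 8 immune cells with HT in their names had 36.0 CPM, and the 6 with E14 had 28.8 CPM.

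The difference of Sdc4 from the mean of the other classes was 1.65 ± 0.33 in nephron epithelium (edgeR adjusted p = 0.0110), 1.33 ± 0.34 in ureteric epithelium (adjusted p = 0.0277) and -2.28 ± 0.45 in endothelium (adjusted p = 0.00553). Each had the same sign in all 3 libraries, and all 3 calls were lost without Drop-seq, at adjusted p of 0.193, 0.282 and 0.118. In stroma the difference of -1.15 ± 0.39 missed the threshold (adjusted p = 0.0754), while it was called by DESeq2 (adjusted p = 0.00975), with a coarser clustering (0.0328), with no doublet removed (0.0360) and without 10x Chromium (0.0175). The difference of nephron epithelium from cap mesenchyme, 0.95 ± 0.44, was not called (edgeR adjusted p = 0.250), but was without Fluidigm C1 (1.15, adjusted p = 0.0217). Within the epithelia, Sdc4 was at 184 and 60.4 CPM in the proximal precursors of Drop-seq and Fluidigm C1, and in 10x Chromium at 208 CPM in the 74 cells led by Sult1d1 and Slc34a1 and 107 CPM in the 141 cells led by Osr2 and Hes5. It was at 157 and 190 CPM in the distal or loop precursors of the droplet libraries. In the ureteric trunk it was at 183 and 157 CPM in Drop-seq and 10x Chromium, against 119 and 94.2 CPM in the tip. The intervals of trunk and tip did not overlap in Drop-seq. They cover counting error only, and that trunk sum of 431304 UMIs came mostly from the deepest of 16 cells with a median of 5793. The difference of trunk and tip was not tested.

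Sdc1 was counted in every class, with small differences among the 5 classes tested. Syndecan 1 is the main syndecan of many epithelia and marks the condensing mesenchyme of the early kidney. Its levels were 53.5, 56.4 and 35.0 CPM in stroma, 44.0, 40.1 and 38.3 CPM in nephron epithelium, and 36.6, 41.1 and 26.3 CPM in cap mesenchyme. Ureteric epithelium had 45.2, 36.3 and 23.8 CPM, and endothelium had the lowest values, 28.5, 22.2 and 20.03 CPM. The differences were small: 0.47 ± 0.13 in stroma (edgeR adjusted p = 0.0217) and -0.61 ± 0.15 in endothelium (adjusted p = 0.00687). Both kept their sign in all 3 libraries and were lost without Drop-seq (adjusted p = 0.140 and 0.0613) or without 10x Chromium (0.203 and 0.0901). The 4 classes above endothelium did not keep a common order across libraries. Immune cells had 13.1, 6.61 and 11.2 CPM, on 1, 2 and 30 counts. Along the nephron, Sdc1 was at 56.3 and 50.6 CPM in the early epithelium of Drop-seq and Fluidigm C1, against 18.8 and 24.7 CPM in their proximal precursors. In 10x Chromium the 141 cells led by Osr2 and Hes5 had 44.7 CPM, and the 74 cells led by Sult1d1 and Slc34a1 had 19.8 CPM.

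**Figure D4:**
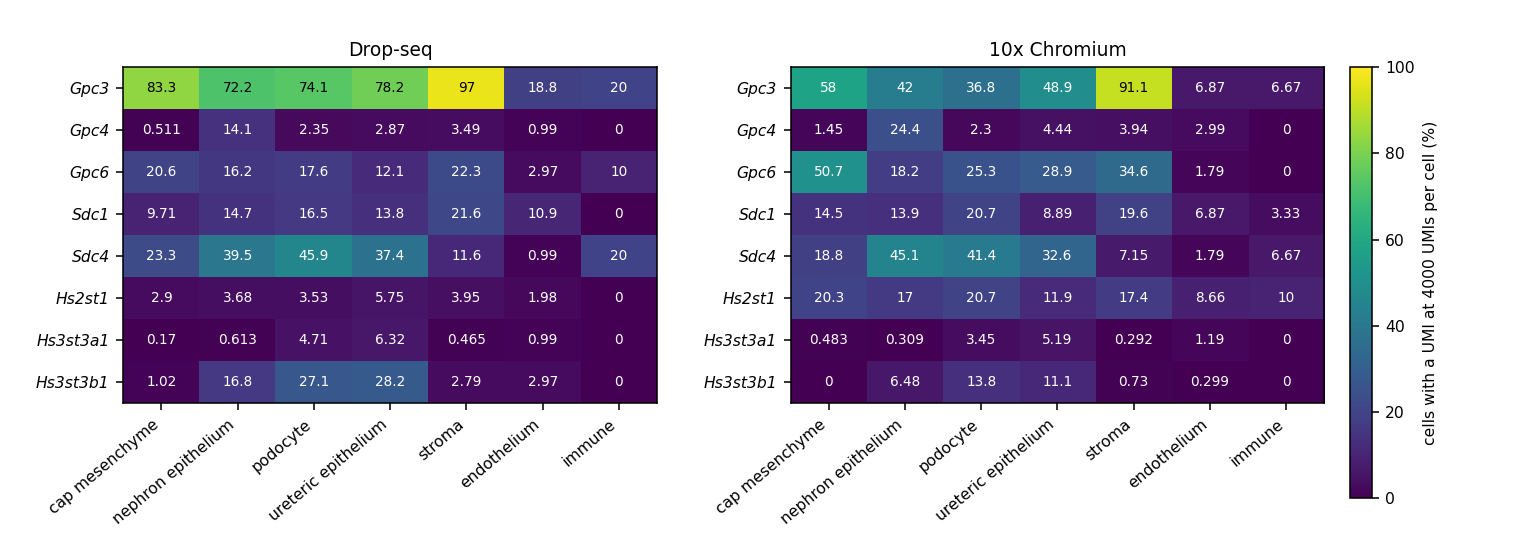
Percent of cells with at least 1 UMI of each member (rows) in 7 cell classes (columns) of Drop-seq (left) and 10x Chromium (right), after thinning each cell to 4000 UMIs. Gpc3 is found in most stromal cells, Gpc4 mainly in nephron epithelium, and Hs3st3a1 in 6.32% and 5.19% of ureteric cells, against at most 4.71% and 3.45% of any other class shown.

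Hs2st1, the 2-O-sulfotransferase that the kidney cannot form without, showed no called difference between classes. Its level in cap mesenchyme was 8.78, 50.9 and 49.6 CPM in Drop-seq, 10x Chromium and Fluidigm C1. In nephron epithelium it was 13.2, 44.4 and 31.3 CPM, in ureteric epithelium 12.7, 37.0 and 43.9 CPM, and in stroma 8.69, 48.9 and 65.8 CPM. Endothelium had 9.50, 23.3 and 39.97 CPM. The top class was nephron epithelium in Drop-seq, cap mesenchyme in 10x Chromium and stroma in Fluidigm C1, so no order held across libraries. The fitted differences ran from -0.38 ± 0.23 in endothelium (edgeR adjusted p = 0.242) to 0.28 ± 0.20 in stroma (adjusted p = 0.385). The 95% intervals of the 5 class differences reached at most 0.86 on the log2 scale to either side, counting the lower bound of -0.86 in endothelium and the upper bound of 0.70 in stroma. Without Fluidigm C1 the endothelial difference was called, at -0.70 (adjusted p = 0.0296). Drop-seq gave the lowest Hs2st1 level in each of the 5 classes.

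Among the classes tested, which leave out podocytes, Hs3st3b1 was highest in both epithelia. It makes the 3-O-sulfated form of heparan sulfate that herpes simplex virus can use for entry, as does its close relative Hs3st3a1. Ureteric epithelium had 84.7 CPM in Drop-seq, 26.1 CPM in 10x Chromium and 36.1 CPM in Fluidigm C1, and nephron epithelium had 59.1, 21.4 and 27.7 CPM. Stroma had 9.53, 2.12 and 2.80 CPM, endothelium 7.13, 1.67 and 5.47 CPM, and cap mesenchyme 3.27, 0 and 1.48 CPM. The epithelia stood above the other 3 classes in every library without overlap of intervals, and cap mesenchyme was lowest in all 3.

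Ureteric epithelium exceeded the mean of the other classes by 2.89 ± 0.21 on the log2 scale (edgeR adjusted p = 2.66e-07) and nephron epithelium by 2.47 ± 0.20 (adjusted p = 3.14e-06). Both calls on Hs3st3b1 held under all 10 alternative settings. Cap mesenchyme fell below the other classes by 3.02 (SE 0.31, adjusted p = 2.86e-05), a size that depends on the count added to zero, since no UMI was found in the 228 cap mesenchyme cells of 10x Chromium. Against a floor of 3 counts in that class sum, nephron epithelium of 10x Chromium was at least 15.3-fold higher. Over the 3 libraries nephron epithelium exceeded cap mesenchyme by 4.39 ± 0.34 (adjusted p = 5.90e-06), by 4.03 in Drop-seq and 4.13 in Fluidigm C1, and this call was also kept under all 10 settings. The cap mesenchyme call against all classes was lost when no doublet was removed (-1.18, adjusted p = 0.161) and with a coarser clustering (-1.28, adjusted p = 0.148). Stroma and endothelium fell by 1.48 (SE 0.26, adjusted p = 0.00144) and 0.87 (SE 0.27, adjusted p = 0.0293), and both were lost without Drop-seq (adjusted p = 0.0707 and 0.258). The stromal call was also lost with classes set by marker z score (-0.84, adjusted p = 0.0622). The endothelial call was kept under 6 of 10 settings, and was also lost without 10x Chromium (adjusted p = 0.113), with a coarser clustering (-1.60, adjusted p = 0.0620) and with no doublet removed (-1.55, adjusted p = 0.0632).

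Within the epithelia, Hs3st3b1 was high in the ureteric tip of the droplet libraries, at 106 CPM in Drop-seq and 29.9 CPM in 10x Chromium, against 2.32 and 8.26 CPM in the trunk on 1 and 2 UMIs. The trunk intervals reached 12.9 and 29.9 CPM, so only in Drop-seq did they lie clear of the tip. That Drop-seq trunk sum came mostly from the deepest of its 16 cells, which the interval does not cover. Fluidigm C1 had a single ureteric cluster, at 36.1 CPM. Podocytes, which were not tested, had 89.2 and 29.8 CPM in Drop-seq and 10x Chromium, near the ureteric tip. These levels were above the 84.7 and 26.1 CPM of ureteric epithelium as a whole, with overlapping intervals. They were also above the 59.1 and 21.4 CPM of nephron epithelium. Early nephron epithelium had 59.0 and 28.1 CPM in Drop-seq and Fluidigm C1, and distal or loop precursors 68.7 and 25.5 CPM in the droplet libraries. In the proximal group of 10x Chromium the pattern was opposite to that of Gpc4: the 74 cells led by genes such as Sult1d1 and Slc34a1 had 1.80 CPM of Hs3st3b1 on 1 UMI, and the 141 cells led by Osr2 and Hes5 had 25.5 CPM. The proximal precursors of Drop-seq and Fluidigm C1, each a single cluster, had 36.5 and 27.3 CPM.

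Hs3st3a1 was an enzyme of ureteric epithelium, and in the droplet libraries of its tip. In ureteric epithelium it had 20.7 CPM in Drop-seq, 25.4 CPM in 10x Chromium and 7.71 CPM in Fluidigm C1. Every other class of the fit lay at or below 4.72 CPM: nephron epithelium had 1.77, 0.612 and 0.533 CPM, stroma 0.841, 0.770 and 1.08 CPM, cap mesenchyme 0.613, 0.467 and 3.43 CPM, and endothelium 1.19, 4.72 and 3.03 CPM. The fitted difference of ureteric epithelium was 3.41 ± 0.51 (edgeR adjusted p = 0.000235), with 4.03, 4.31 and 2.17 in the libraries, and it was kept under all 10 alternative settings. In the droplet libraries the ureteric intervals were clear of every other class of the fit.

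The Fluidigm C1 values rest on few cells, in ureteric epithelium on 9 of 87, and on 7 in nephron epithelium and 6 in stroma. All 107 cap mesenchyme reads of Hs3st3a1 came from 1 of 167 cells, and the 61 endothelial reads from 2 of 77 cells. Immune cells held 16 reads in 1 of 14 cells, or 5.95 CPM, and 0 UMIs in both droplet libraries. Cap mesenchyme of the droplet libraries held 3 and 1 UMIs, and without Fluidigm C1 its difference of -0.48 (adjusted p = 0.670) became -2.29 (adjusted p = 0.0280); with classes set by marker z score it was -4.39 (adjusted p = 0.0132).

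The single ureteric cluster of Fluidigm C1 carried the trunk name by its markers, so tip and trunk can be compared in the droplet libraries only. Within the ureteric epithelium of the droplet libraries, 43 of 44 and 35 of 35 Hs3st3a1 UMIs lay in tip cells. The tip had 25.4 and 30.8 CPM in Drop-seq and 10x Chromium. The trunk had 2.32 CPM (0.0587 to 12.9) and 0 CPM (interval 0 to 15.2) on 16 and 36 cells. Trunk levels up to those upper limits therefore remained possible. Both trunk intervals ended below the tip intervals of 18.4 to 34.2 and 21.5 to 42.9 CPM. The 16 Drop-seq trunk cells had a median of 5793 UMIs but 431304 in sum, so most came from the deepest cells. The intervals cover counting error only and not this uneven depth. Outside the ureteric lineage, podocytes had 9.32 and 8.71 CPM, above the nephron epithelium of the same libraries. In 10x Chromium all 17 endothelial UMIs fell in the cluster of 249 cells led by Aplnr and Plvap (6.56 CPM), and none in the 119 cells led by Esm1, Fabp4 and Gpihbp1.

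In the stroma the 2 enzymes gave no stable pattern. Nephrogenic-zone stroma had 2.92, 1.21 and 7.04 CPM of Hs3st3b1 and other stroma 17.9, 4.35 and 0.246 CPM, so that Fluidigm C1, with 9 and 5 cells holding a read, went against the droplet libraries. The difference of 0.67 ± 1.12 was not called (edgeR adjusted p = 0.804). Hs3st3a1 had at most 1.70 CPM in either zone of any library. Hs2st1 was higher in nephrogenic-zone stroma by 0.65 ± 0.28 in the fit and had the same sign in all 3 libraries, without passing the test (edgeR adjusted p = 0.234). Gpc4 showed the opposite sign in all 3, at -0.89 ± 0.39 (adjusted p = 0.241).

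Across the 15 class sums, log2 levels centred within library gave a description of which members varied alike, with no test because the sums share libraries and cell classes. Gpc3 and Gpc6 had the highest correlation of any pair of members (Pearson r = 0.90), Gpc3 and Sdc1 had 0.83, and Gpc4 and Hs3st3b1 had 0.62. The neighbours Gpc3 and Gpc4 had 0.13, and Hs3st3a1 and Hs3st3b1 had 0.48. Among 9632 other genes tested, those most like Gpc3 were Smarcd3, Aldh2 and Nfatc4 (r = 0.97, 0.97 and 0.95), those most like Gpc6 were C1qtnf4, Pdlim4 and Atxn7l3b (0.96 each), and those most like Gpc4 were Gucd1, Mylk3 and A1cf (0.91, 0.91 and 0.91). Sdc1 was most like Sdc2, Sdf2 and Csdc2 (0.93, 0.92 and 0.90) and Sdc4 most like Zcchc18, Slc25a23 and Zfp612 (0.98, 0.97 and 0.97). Hs3st3b1 was most like 2200002D01Rik, Dbi and Pcca (0.99, 0.95 and 0.94), Hs3st3a1 most like Vps36, Zfp809 and Tmem189 (0.92, 0.91 and 0.90), and Hs2st1 most like Nek1, Ppp1r13l and Cul5 (0.82, 0.79 and 0.76).

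The rest of the heparan sulfate machinery was read from 44 further genes, of which 36 were tested. They gave 63 calls on 25 genes over the 7 comparisons, all with the same sign in the 3 libraries. The matching share of all genes called in at least 1 comparison was not counted. These counts include Gpihbp1, a capillary protein that neither carries nor makes the chain. It was called higher in endothelium and lower in cap mesenchyme, nephron epithelium and stroma. Called higher and lower were 5 and 6 of the 36 in cap mesenchyme (7.65% and 5.21% of all genes tested), 3 and 4 in nephron epithelium (6.65% and 3.84%) and 7 and 1 in ureteric epithelium (8.99% and 5.88%). Stroma gave 7 and 4 (7.34% and 8.17%), and endothelium 6 and 8 (14.54% and 11.04%). Nephron epithelium against cap mesenchyme gave 6 and 3 (4.52% and 3.14%), and the stromal zones 0 and 3 (1.39% and 0.534%). These genes, like the members, were kept out of clustering by rule. With the clustering and marker genes counted in, the percentages were 8.57% and 8.78% in cap mesenchyme and 9.6% and 6.4% in nephron epithelium. They were 11.7% and 8.84% in ureteric epithelium, 11.3% and 10.1% in stroma and 16.8% and 12.2% in endothelium. Nephron epithelium against cap mesenchyme then had 7.89% and 4.6%, and the stromal zones 2.11% and 2.34%. The median log2 difference of the 36 stayed between -0.21 and 0.05 in every comparison, where the median of all genes tested lay between -0.06 and 0.06.

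**Figure D5:**
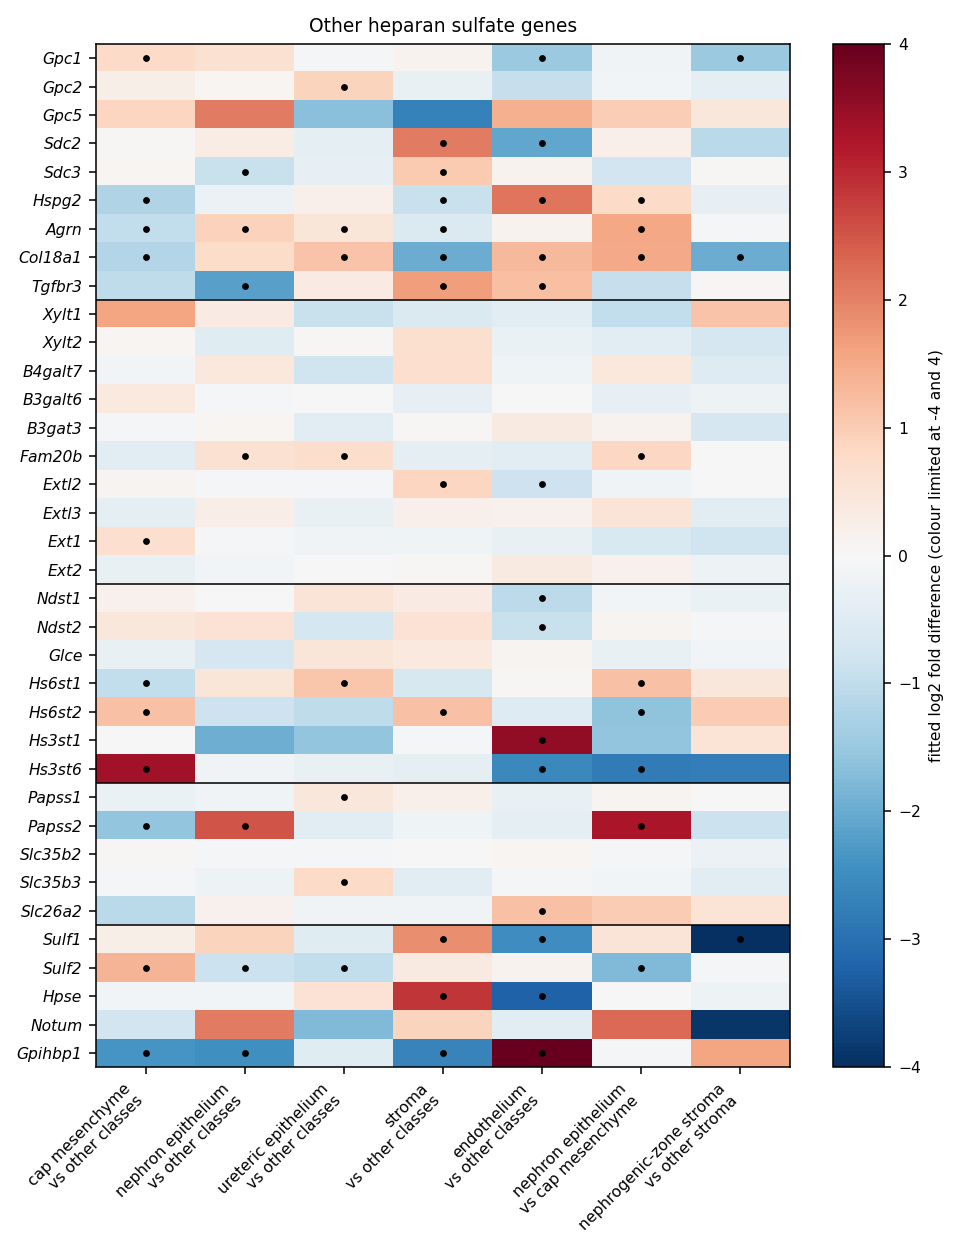
Fitted log2 fold difference (colour, red higher and blue lower, limited at -4 and 4) of the 36 other heparan sulfate genes tested (rows, grouped by lists separated with lines) in 7 comparisons (columns); dots mark calls. Calls gather in the core proteins, the 3-O- and 6-O-sulfotransferases and the list of removal enzymes, which also holds Gpihbp1, and are sparse in chain synthesis.

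Among the 9 other core proteins, the basement membrane proteoglycans Hspg2, Agrn and Col18a1 all differed between classes. Hspg2 (perlecan) reached 60.6, 164 and 63.2 CPM in endothelium and was higher there by 2.15 ± 0.15 (edgeR adjusted p = 4.37e-08). Agrn (agrin) had 72.7, 94.6 and 115 CPM in nephron epithelium, against 21.9, 24.3 and 51.3 CPM in cap mesenchyme, a difference of 1.54 ± 0.20. Col18a1 (collagen XVIII) rose with it, by 1.52 ± 0.36, and in stroma it fell by 1.99 (SE 0.32). Syndecan 2 (Sdc2) was the stromal syndecan, with 74.0, 73.9 and 91.3 CPM in stroma and a difference of 2.07 ± 0.20, and Sdc3 and Tgfbr3 were also higher there. Gpc1 was higher in cap mesenchyme by 0.77 ± 0.21 and fell by 1.49 in endothelium (SE 0.26).

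The 10 tested genes of linker and chain synthesis gave few calls. Ext1, a subunit of the chain polymerase, was higher in cap mesenchyme by 0.67 ± 0.15, and Fam20b, the xylose kinase of the linker, was higher in nephron and ureteric epithelium by 0.60 ± 0.17 and 0.69 ± 0.18. Extl2 was higher in stroma and lower in endothelium. In the sulfate supply list, Papss2, an enzyme that makes the sulfate donor PAPS, was higher in nephron epithelium, at 52.0, 24.2 and 44.2 CPM, than in cap mesenchyme, at 3.68, 2.80 and 7.03 CPM, by 3.27 ± 0.54 (edgeR adjusted p = 0.00234).

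Other sulfotransferases each had their own class pattern. Hs3st6 had 59.8, 97.1 and 91.5 CPM in cap mesenchyme and was higher there by 3.36 ± 0.35, while it fell in nephron epithelium against cap mesenchyme by 2.79 (SE 0.49, edgeR adjusted p = 0.0063). Podocytes also held Hs3st6, at 61.2 and 139 CPM in the droplet libraries. Hs3st1, which makes the antithrombin-binding form of the chain, was higher in endothelium by 3.55 ± 0.62, at 5.94, 13.6 and 8.80 CPM. The 6-O-sulfotransferases split: Hs6st1 was higher in ureteric epithelium by 1.12 ± 0.21 and fell by 1.0 in cap mesenchyme (SE 0.24), and Hs6st2 was higher in cap mesenchyme and stroma by 1.17 ± 0.31 and 1.17 ± 0.30. Ndst1 and Ndst2, which start chain modification, were called lower in endothelium.

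Among the enzymes that remove sulfate or cut the chain, Sulf2 was higher in cap mesenchyme by 1.36 ± 0.17, at 56.8, 108 and 145 CPM. It fell in nephron epithelium against cap mesenchyme by 1.78 (SE 0.23). Sulf1 was higher in stroma, and within stroma it fell by 5.24 in the nephrogenic zone (SE 0.85, edgeR adjusted p = 0.00507): nephrogenic-zone stroma had 0.729, 0.808 and 0.863 CPM, against 18.7, 42.7 and 26.5 CPM in other stroma. Heparanase (Hpse) was higher in stroma by 2.86 ± 0.52. Gpihbp1 was listed with these enzymes but is not one of them. This capillary protein, which holds lipoprotein lipase, had 65.3, 158 and 95.4 CPM in endothelium and was higher there by 7.96 ± 0.22 (edgeR adjusted p = 8.43e-13).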

How the data were processed

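The deposited values are raw counts per gene and cell: UMI counts for Drop-seq and 10x Chromium and read counts for Fluidigm C1. Per the submitters' processing notes, reads were aligned to mm10 with Bowtie2 2.2.7 (Drop-seq and Fluidigm C1) or handled with Cell Ranger 1.3.0 (10x Chromium). For the gene annotation and the choice of cells before deposit, nothing is stated. The labels repeat the Drop-seq library protocol for all 3 platforms.

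Cells with under 500 genes or over 20% mitochondrial counts were removed, as were 0, 17 and 11 called doublets (the 5 Drop-seq calls were under 0.5% of cells and were not used). Each library was clustered alone (Leiden, resolution 1, 2000 variable genes, 30 components, scanpy 1.11.5), without heparan sulfate, cell cycle, ribosomal, mitochondrial and globin genes, and named from marker lists. Counts were summed per class and library and tested with edgeR 4.0.16 (TMM scaling, filterByExpr, library as a block, 8 residual degrees of freedom for classes and 10 for zones) in R 4.3.3; the test was tried on simulated counts first. Shares were thinned to 4000 UMIs or 50000 reads, and intervals are exact at 95% and cover counting error only. The members and lists were chosen with earlier results of these data known. Named genes are the 8 members, other heparan sulfate genes called with the same sign in 3 libraries, and for each member the 3 genes of highest correlation; examples by stage or cluster were picked after their values were seen. DESeq2 1.42.0, other size factors, filters and clusterings, and leaving out each library were the alternatives.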

Additional observations from a re-analysis of the deposited data

How the results depend on the processing

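The 19 member calls kept their direction under all 10 alternatives. All 19 stayed past the threshold under DESeq2, RLE size factors, a minimum of 1000 genes per cell and without Fluidigm C1. With no low-count filter and with classes by marker z score 18 did, with no doublet removed 17, with Leiden resolution 0.6 16, without 10x Chromium 15 and without Drop-seq 8. Counts of genes called over the whole table fell without Drop-seq (the lowest in each range) and without 10x Chromium, and in the comparisons between classes rose without Fluidigm C1 (the highest): in cap mesenchyme they ran from 247 to 1464 (1239 in full), in nephron epithelium from 330 to 1540 (1011), in ureteric epithelium from 436 to 1776 (1434), in stroma from 454 to 1795 (1496), in endothelium from 1003 to 3016 (2466) and in nephron epithelium against cap mesenchyme from 123 to 1134 (739). Leiden resolution 0.6 gave 819 genes in cap mesenchyme. The stromal zones were the least stable, with 184 genes in full, 14 to 61 without a library, 413 with DESeq2, 12 with Leiden resolution 0.6, 116 with classes by marker z score, 18 with at least 1000 genes per cell and 14 with no doublet removed; the cause was not tested. The class with the largest share of cells was the same after thinning for 20 of 24 pairs of member and library. In Fluidigm C1, whose cell names carry the labels HT and E14, the top class of the whole library was kept for 7 of 8 members in the HT cells and for 5 in the E14 cells, where cap mesenchyme led for Hs3st3a1 on a single cell. No paired analysis was possible because the labelled groups are the 3 libraries themselves, with 1 sample each; the comparisons between cell classes were made within libraries, with the library as a block in every fit. Depth limits the sparse members: Hs3st3a1 had 44 and 35 ureteric UMIs in the droplet libraries, and Gpc4 10 and 11 UMIs in cap mesenchyme.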
